A study of Mus musculus with 15 samples.

Results

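The 9 microRNA pathway genes described here were chosen by name and role, not by a measured value, with earlier results of these data known. They were followed in mouse embryonic stem (ES) cells depleted of TET1 or TET2. The genes were Dgcr8, Xpo5, Dicer1, Tarbp2, the 4 Argonaute genes Eif2c1 to Eif2c4 (their older names, now Ago1 to Ago4) and Tnrc6a. All 9 were found among the 26061 genes of the expression table, and all 9 were among the 19490 genes that passed the filter on low values. The cells were of the E14 line (129/Ola background), grown without feeders in serum and LIF, and total RNA was sequenced after depletion of rRNA in directional libraries. Each group held 5 libraries, from cells transduced with a pLKO.1 lentivirus that carried a scrambled hairpin (shScr), a hairpin against Tet1 (shTet1) or a hairpin against Tet2 (shTet2), and every group was kept in puromycin for 3 days before collection. One hairpin was used per gene, so effects of a hairpin other than on its target cannot be told apart from those of the depletion. The labels number the libraries but do not say whether they came from separate transductions, so p-values measure the spread between these libraries, which may in part be technical. The comparisons ask whether the factors that make and use small RNAs are expressed differently when either TET enzyme is depleted.

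MicroRNAs are cut from hairpins in longer transcripts. In the nucleus the microprocessor, formed by the nuclease Drosha and its RNA-binding cofactor Dgcr8, releases the hairpin, which Xpo5 (exportin 5) carries to the cytoplasm. There Dicer1, with its RNA-binding partner Tarbp2, cuts off the loop. One strand is loaded into an Argonaute protein, which finds target mRNAs by pairing with the seed of the microRNA, and Tnrc6a (GW182) bridges the Argonaute to the deadenylases that shorten the target's tail. Mouse ES cells need Dgcr8 and Dicer1 to differentiate properly, and many of their abundant microRNAs favour rapid cycling.

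The pathway acts on transcripts that are themselves in the expression table. The mRNA of Dgcr8 holds microprocessor substrates of its own, and several of the hosts described below give products with the same seed. RefSeq mature sequences (GRCm38.p6) were looked up for such transcripts other than Rian and Meg3, and Sfmbt2 gave no match. They matched 6 transcripts, Dgcr8 included, with 39 matches to mature microRNAs in all, where miR-16-5p counts at both Smc4 and Dleu2. Those of Dgcr8, and those of 4 hosts whose products share a seed between loci, are shown 5′ to 3′ in lower case with the seed (bases 2 to 8) in capitals and with the position in that build.
miR-1306-5p (Dgcr8, chr16:18284288-18284310, minus strand): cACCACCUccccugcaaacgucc
miR-1306-3p (Dgcr8, chr16:18284248-18284268, minus strand): aCGUUGGCucugguggugaug
miR-3618-5p (Dgcr8, chr16:18284602-18284623, minus strand): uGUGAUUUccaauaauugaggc
miR-3618-3p (Dgcr8, chr16:18284562-18284583, minus strand): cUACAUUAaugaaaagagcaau
miR-92a-3p (Mir17hg, chr14:115044476-115044496, plus strand): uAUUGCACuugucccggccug
miR-25-3p (Mcm7, chr5:138165332-138165353, minus strand): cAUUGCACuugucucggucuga
miR-93-5p (Mcm7, chr5:138165574-138165596, minus strand): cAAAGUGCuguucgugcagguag
miR-106b-5p (Mcm7, chr5:138165787-138165807, minus strand): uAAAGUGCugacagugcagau
miR-15b-5p (Smc4, chr3:69009775-69009796, plus strand): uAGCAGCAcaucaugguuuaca
miR-15a-5p (Dleu2, chr14:61632075-61632096, minus strand): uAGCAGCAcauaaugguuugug
miR-16-5p (Smc4, chr3:69009918-69009939, plus strand and Dleu2, chr14:61631936-61631957, minus strand): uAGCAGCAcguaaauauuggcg
The 4 products of Dgcr8 have 4 different seeds. The seed AUUGCAC is shared by a product of Mir17hg and one of Mcm7, the seed AAAGUGC by both Mcm7 products shown with it, and the seed AGCAGCA by the products of Smc4 and Dleu2. Of Mir17hg only the miR-92a hairpin was matched. The reference used held 7 mature microRNAs with the seed AAAGUGC, so hosts other than Mcm7 may also carry it. The microRNAs themselves were not measured in these libraries, and the small RNA libraries of the study were not analysed here.

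The libraries held 15258291 to 35432425 reads over genes, and libraries of 1 group correlated at r = 0.977 to 0.995 across genes. Values are given on the authors' variance-stabilised scale, which approaches log2 for well-covered genes, so that a difference of 1 unit is close to a doubling. Tet1 was at 27.8% of the shScr normalised reads in shTet1 (difference -1.84 ± 0.19 SE, adjusted p = 0.000228) and Tet2 at 26.6% in shTet2 (-1.90 ± 0.13, adjusted p = 3.67e-07), with no overlap between groups for either, so each targeted gene was low in the group labelled for it. The 8 markers of ES cells summed to 3553 to 5709 RPM (reads per 1000000 gene reads) in every library, against at most 133 for any of the neural, trophoblast, primitive endoderm, mesoderm and fibroblast lists, none of whose genes was at 0 throughout. In bulk RNA, fewer cells of a type and less RNA per cell cannot be told apart. In all 3 groups, the first component of the deviations from group means (37.9% of their variance) separated replicates 1 and 2 from replicates 3 to 5. The labels name 2 extraction methods but give none per library. Genes for odorant and related receptors, which ES cells scarcely use, held 9.43 to 26.3 RPM in 11 libraries and 53.3 to 63.4 in shScr replicate 4, shTet1 replicates 3 and 4 and shTet2 replicate 4. Transcript length also moved with the library. The median deviation of the 4821 genes with the longest exons minus that of the 4822 genes with the shortest ran from -0.20 in shTet2 replicate 1 and -0.18 in shTet1 replicate 5 to 0.17 in shTet1 replicate 1 and 0.18 in shTet2 replicate 3.

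Per length, the machinery spanned nearly 3 orders of magnitude. In shScr, Xpo5 stood at 70.4 ± 6.49 RPKM (reads per kb of exon per 1000000 gene reads; SD, n = 5), followed by Dicer1 at 18.1 ± 2.45, Dgcr8 at 15.5 ± 2.43, Eif2c2 at 10.5 ± 3.71, Tnrc6a at 9.80 ± 1.32, Eif2c1 at 6.56 ± 1.69, Tarbp2 at 5.26 ± 1.09, Eif2c3 at 2.23 ± 0.34 and Eif2c4 at 0.08 ± 0.04. The shScr ranges of neighbours in this order did not overlap between Xpo5 and Dicer1, between Tarbp2 and Eif2c3 and between Eif2c3 and Eif2c4, and overlapped for the other 5 pairs of neighbours. Lengths were exons merged over annotated transcripts, 32 exons of 3709 bases for Xpo5 and 4 of 4549 for Tarbp2. Levels and their order depend on that annotation, and other lengths were not tried. The median level of Xpo5 over the 15 libraries was above that of 94.5% of the 19273 genes with a length, and that of Eif2c4 above only 22.0%. Among the Argonautes, Eif2c2, the member whose protein can itself cleave a fully paired target, had the highest mean level in all 3 groups. Eif2c4 had 4 to 84 reads per library, so that its values rest on few reads.

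**Figure D1:**
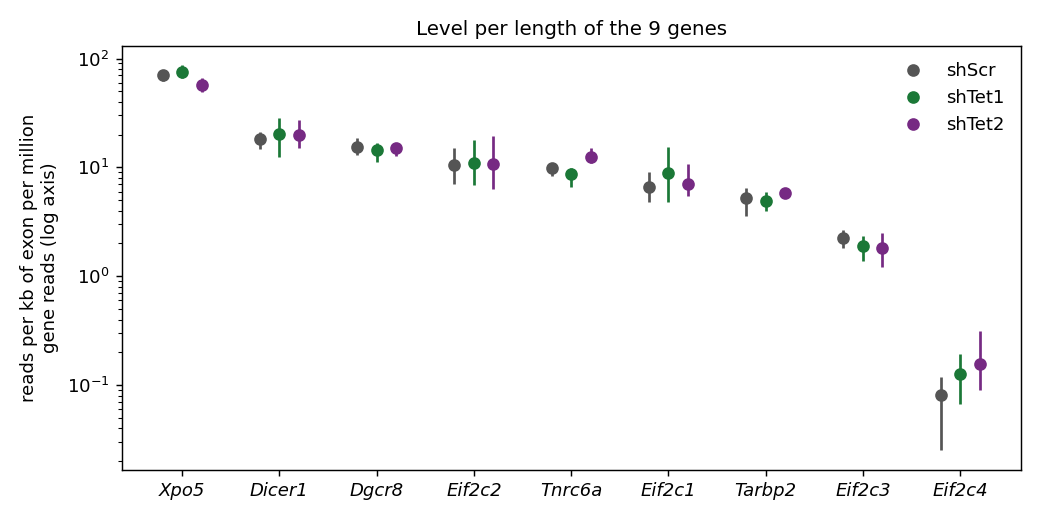
Level of the 9 genes in RPKM, reads per kb of exon per 1000000 gene reads (log axis), with the mean (point) and the range (line) of 5 libraries in shScr, shTet1 and shTet2. The genes are ordered by their shScr mean, from Xpo5 at 70.4 to Eif2c4 at 0.08. The groups of a gene lie close together beside that whole range, but not beside the distance between some neighbours, such as Eif2c2 and Tnrc6a.

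Against shScr, no gene of the machinery passed the test in either depletion. In shTet1 0 of 9 passed (limma, Benjamini-Hochberg adjusted p under 0.05 over all genes tested), where 14 genes or 0.0718% of the table did. In shTet2 0 of 9 passed, where 76 genes or 0.39% did. Between the depletions, 1 of 9 passed, Tnrc6a, where 827 genes or 4.24% did. At an unadjusted p under 0.05 the members were 0 of 9 for shTet1 against 11.8% of all genes, 1 of 9 for shTet2 (Xpo5) against 11.6%, and 2 of 9 (Xpo5 and Tnrc6a) for shTet2 against shTet1, with 15.7% of all genes. Values did not overlap between groups for 0 of 9 genes in shTet1 against shScr (2.62% of the table), for 0 of 9 in shTet2 against shScr (2.7%) and for 1 of 9 in shTet2 against shTet1 (6.04%). The median difference of the 9 genes was 0.03 in shTet1, 0.00 in shTet2 and -0.02 between them, beside 0.01, 0.04 and 0.01 over all genes tested. The 95% confidence intervals of the 9 genes were 0.56 to 1.17 units wide. Every interval included 0 but those of Tnrc6a between the depletions and of Xpo5 in shTet2 against either other group. Both comparisons with shScr use the same 5 control libraries.

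**Figure D2:**
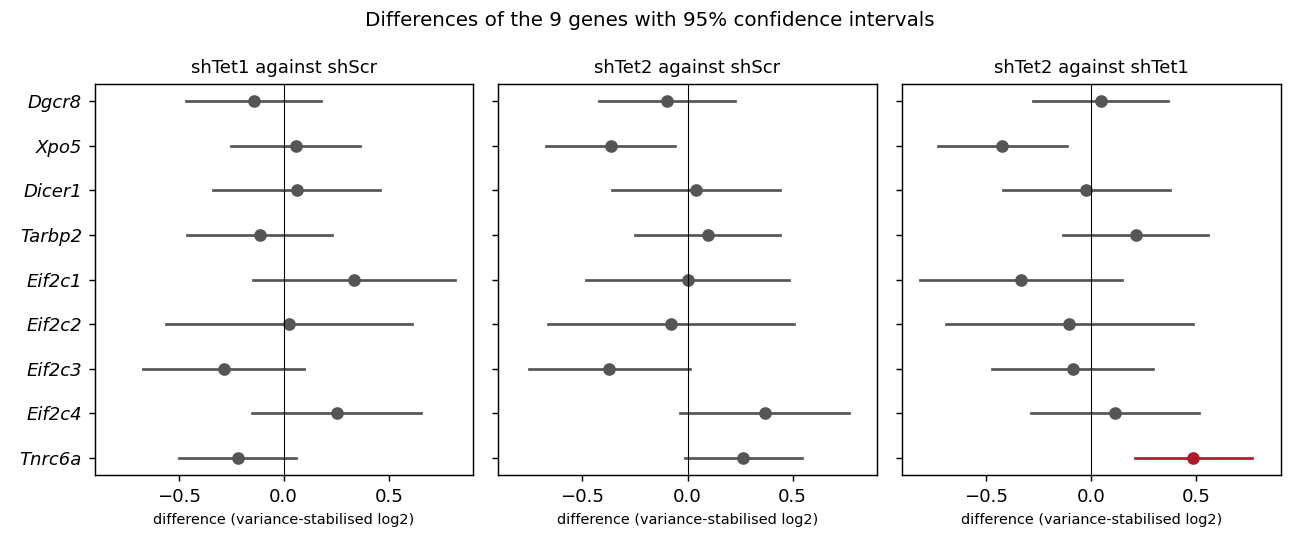
Difference of each of the 9 genes on the variance-stabilised log2 scale (point) with its 95% confidence interval (line) for each depletion against the control and for TET2 against TET1 depletion. The Tnrc6a interval between the depletions, 0.21 to 0.76 and drawn in red, belongs to the only member that passed the adjusted threshold.

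Tnrc6a (chr7:130267770-130338802, mm9, plus strand) was higher in TET2-depleted than in TET1-depleted cells. Its values in replicates 1 to 5 were 10.90, 10.67, 10.71, 10.93 and 11.01 in shScr. In shTet1 they were 10.58, 10.64, 10.72, 10.78 and 10.40. In shTet2 they were 10.86, 10.96, 11.48, 11.02 and 11.23. The lowest shTet2 library was thus above the highest shTet1 library, while shScr lay between and overlapped with both. The difference between shTet2 and shTet1 was 0.48 ± 0.13 (SE; 95% interval 0.21 to 0.76; limma adjusted p = 0.0442), higher in 5 of 5 same-numbered pairs, with a two-sided exact permutation p of 0.00794, the smallest that 5 against 5 libraries can give. It was 0.30 within replicates 1 and 2 and 0.61 within replicates 3 to 5. Against shScr, Tnrc6a stood at 121.6% of control in shTet2 (0.27 ± 0.13, adjusted p = 0.46) and at 85.6% in shTet1 (-0.22 ± 0.13, adjusted p = 0.567), neither of which passed. The call between the depletions was close to the threshold. It was lost on leaving out shTet2 replicate 3, the highest library (0.39, adjusted p = 0.109), or any of 11 others, with adjusted p-values from 0.0514 to 0.0957, and was kept without shScr replicate 2 or 4 (0.0415 and 0.0455) or shTet2 replicate 1 (0.039). With each library's long minus short value as a covariate, a setting chosen after seeing the data, the difference was 0.55 ± 0.11 (limma adjusted p = 0.00929). That was the smallest adjusted p of 29 alternatives, of which 11 called the gene. The call was lost without a variance trend (limma adjusted p = 0.0584), with 2 groups only (0.071), with median centring (0.117) and with array weights (0.0608).

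Xpo5 (chr17:46339804-46379248, mm9, plus strand), the exporter of hairpin precursors, had its lowest values in TET2-depleted cells. In shScr replicates 1 to 5 it was at 12.46, 12.49, 12.67, 12.27 and 12.72. In shTet1 it was at 12.32, 12.34, 12.83, 12.70 and 12.71. In shTet2 it was at 11.87, 11.98, 12.44, 12.11 and 12.38. Of the 5 shTet2 libraries, replicates 3 and 5 lay within the range of both other groups, and the other 3 were below every other library. Mean normalised reads were 77.9% of control in shTet2 and 104.6% in shTet1. The difference was -0.37 ± 0.15 in shTet2 against shScr (95% interval -0.67 to -0.06; adjusted p = 0.325) and -0.42 ± 0.15 against shTet1 (-0.73 to -0.12; adjusted p = 0.127), with values lower in 5 of 5 same-numbered pairs each time. Neither passed in the unpaired fit, and the exact permutation p-values, not adjusted over genes, were 0.0397 and 0.0476. Within replicates 1 and 2 the difference from shTet1 was -0.41 and within replicates 3 to 5 it was -0.44. With the replicate number as a block, taken to pair shTet1 and shTet2, the difference from shTet1 had a limma adjusted p of 0.00918. The labels do not state such a pairing, so the block and the same-numbered pairs rest on an assumption. With that block, 2178 genes of the table were called in place of 827. In shTet1 against shScr the difference was 0.06 ± 0.15.

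**Figure D3:**
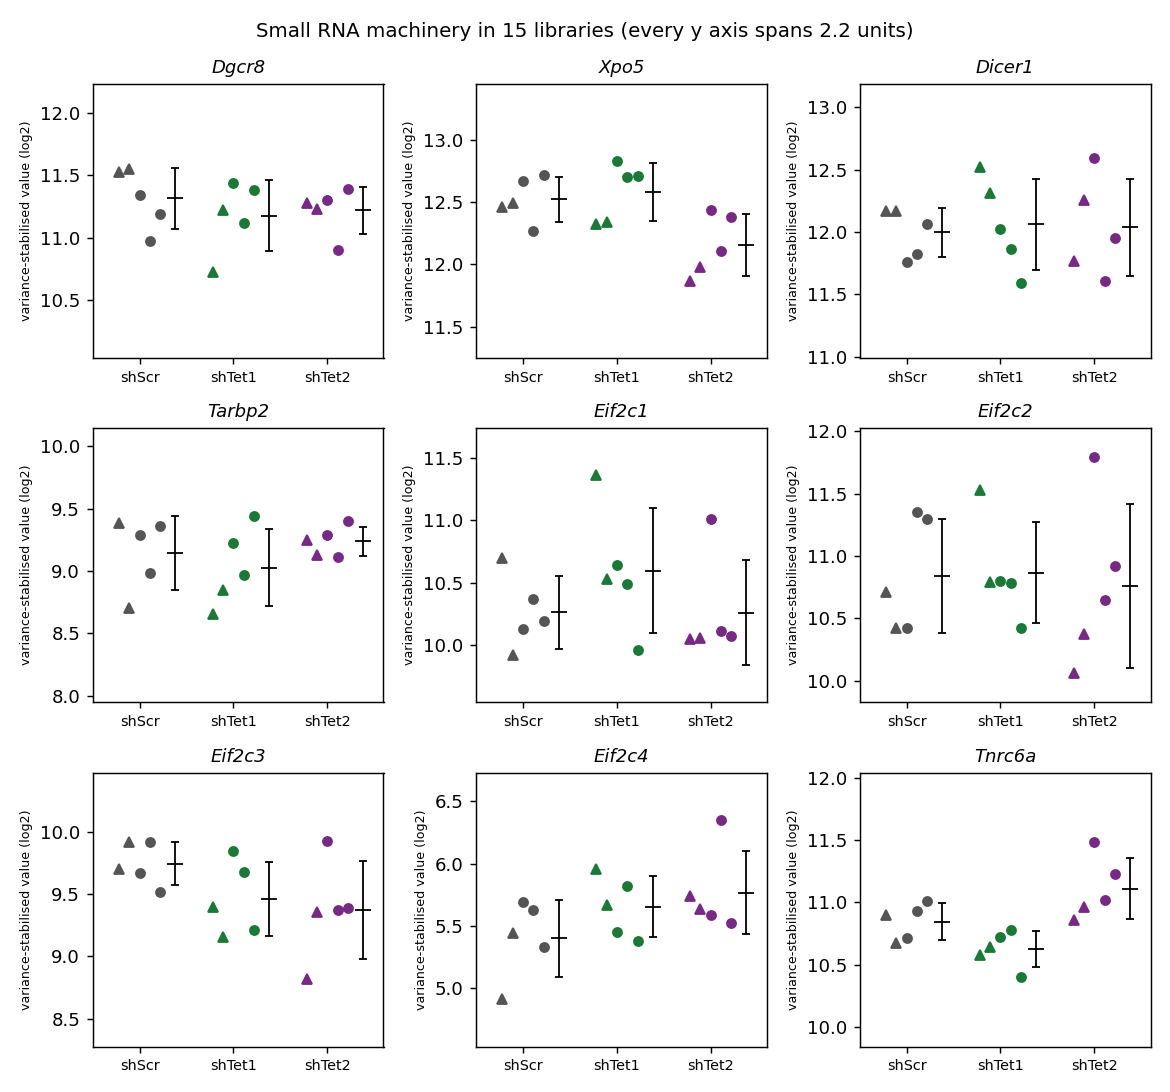
Variance-stabilised log2 value of each of the 9 genes in every library, by group, with replicates 1 and 2 as triangles, replicates 3 to 5 as circles, and the group mean ± SD (n = 5) as a black bar. In Tnrc6a all shTet2 points (10.86 to 11.48) lie above all shTet1 points (10.40 to 10.78), and no other gene separates any pair of groups.

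The microprocessor cofactor Dgcr8 (chr16:18254041-18289342, mm9, minus strand) was at 11.32 ± 0.24 (SD, n = 5) in shScr, 11.18 ± 0.28 in shTet1 and 11.22 ± 0.19 in shTet2. Its lowest value of all, 10.72, was in shTet1 replicate 1 and its highest, 11.55, in shScr replicate 2. Differences were -0.14 ± 0.15 in shTet1 (adjusted p = 0.791) and -0.10 ± 0.15 in shTet2 (0.88), with 95% intervals of -0.46 to 0.18 and -0.42 to 0.22. Neighbouring genes share its exons. Mir1306, whose products are shown above, takes up 79 exonic bases on the same strand. The tRNA methyltransferase gene Trmt2a overlaps 11.3% of the exonic bases from the opposite strand, and whether reads were counted by strand is not given in the sources used here. Trmt2a itself differed by -0.15 ± 0.14 in shTet1 and -0.27 ± 0.14 in shTet2 (adjusted p = 0.756 and 0.491). Drosha, the nuclease of the same complex, differed by 0.05 ± 0.22 and 0.03 ± 0.22.

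Dicer1 (chr12:105925952-105990162, mm9, minus strand) had nearly the same level in all groups, with values of 11.76 to 12.17 in shScr, 11.59 to 12.52 in shTet1 and 11.61 to 12.59 in shTet2. The differences were 0.06 ± 0.19 in shTet1 (95% interval -0.34 to 0.46) and 0.04 ± 0.19 in shTet2 (-0.36 to 0.44). The spread within the depleted groups was wider than these differences, with the lowest library of all, shTet1 replicate 5, and the highest, shTet2 replicate 3, both in them. Tarbp2 (chr15:102348623-102354107, mm9, plus strand), the partner of Dicer1, was at 9.14 ± 0.29 (SD, n = 5) in shScr, 9.03 ± 0.31 in shTet1 and 9.24 ± 0.12 in shTet2. None of its 3 differences, -0.11 and 0.10 from shScr and 0.21 between the depletions (± 0.16 SE each), passed, with adjusted p-values of 0.86, 0.891 and 0.627.

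Apart from Eif2c2, the Argonaute genes lie side by side on the minus strand of chromosome 4 (Eif2c3, chr4:126008948-126106800; Eif2c1, chr4:126112256-126145878; Eif2c4, chr4:126166785-126210716; mm9), and Eif2c2 on chromosome 15 (chr15:72932055-73015377, minus strand). Their transcripts are similar enough that 1.69% of the 50-base stretches of Eif2c1 occur in Eif2c2 or Eif2c3, and 0.745% of those of Eif2c3 in Eif2c1, so a small share of reads could be placed at either gene. The 3 neighbours did not have differences of 1 sign. Against shScr, Eif2c1 differed by 0.34 ± 0.23 in shTet1 and 0.00 ± 0.23 in shTet2, Eif2c3 by -0.28 ± 0.18 and -0.37 ± 0.18, and Eif2c4 by 0.25 ± 0.19 and 0.37 ± 0.19, with adjusted p-values of 0.447 to 1 for all 6. Single libraries moved several of these values. Eif2c1 in shTet1 was 0.14 without shTet1 replicate 1, Eif2c3 in shTet2 was -0.23 without shTet2 replicate 1, and Eif2c4 was 0.13 in shTet1 without shScr replicate 1 and 0.22 and 0.24 in shTet2 without shTet2 replicate 4 or shScr replicate 1. Between the depletions Eif2c1 ran from -0.52 without shTet2 replicate 3 to -0.14 without shTet1 replicate 1. Eif2c2 differed by 0.03 ± 0.28 and -0.08 ± 0.28.

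Eif2c3 was the Argonaute with the lower values in both depletions. It read 9.70, 9.92, 9.67, 9.92 and 9.52 in shScr. It read 9.40, 9.16, 9.85, 9.68 and 9.21 in shTet1. It read 8.82, 9.36, 9.93, 9.37 and 9.39 in shTet2. In shTet2, 4 of 5 libraries were below every shScr library, and the fifth, replicate 3, was above them all. In mean normalised reads this was 82.3% of control in shTet1 and 78.2% in shTet2 (adjusted p = 0.597 and 0.447; exact permutation p = 0.111 and 0.0952).

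Eif2c2 and Eif2c1 varied more between libraries of 1 group than most genes at their level. The SD within groups was 0.52 for Eif2c2, larger than that of 95.9% of the 1670 genes within 0.5 units of its mean value, and 0.41 for Eif2c1, larger than that of 86.4% of 1931. For Tnrc6a it was 0.18, larger than that of only 21.0% of 1654. Eif2c2 read 10.71, 10.42, 10.42, 11.35 and 11.30 in shScr. It read 11.53, 10.79, 10.80, 10.78 and 10.42 in shTet1. It read 10.06, 10.37, 11.79, 10.65 and 10.92 in shTet2. The lowest and the highest library of all 15 were thus both shTet2. Eif2c1 read 10.70, 9.92, 10.13, 10.37 and 10.19 in shScr and 11.36, 10.53, 10.64, 10.49 and 9.96 in shTet1. In shTet2 it read 10.05, 10.06, 11.01, 10.11 and 10.07, with replicate 3 far above 4 libraries that lay within 0.1 units of each other.

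For some members the highest values fell in the same libraries. Of the 15, 2 libraries, shTet2 replicate 3 and shTet1 replicate 1, had the highest long minus short values and were also the 2 highest for Dicer1 (12.59 and 12.52), Eif2c2 (11.79 and 11.53) and Eif2c1 (11.01 and 11.36), 3 genes with 10057, 8031 and 8268 exonic bases. Tnrc6a, with 8247, was also highest in shTet2 replicate 3 (11.48) but stood at 10.58 in shTet1 replicate 1. Eif2c3, the longest with 16571 exonic bases, was highest in shTet2 replicate 3 (9.93) but at 9.40 in shTet1 replicate 1, and Dgcr8, with 7286, had its lowest value there. With the long minus short value as a covariate, an alternative chosen after seeing the data, the SE of the shTet2 difference went from 0.28 to 0.18 for Eif2c2, from 0.23 to 0.15 for Eif2c1 and from 0.19 to 0.15 for Dicer1, while that of Xpo5 stayed at 0.15. In that fit the differences of these 3 genes in shTet2 were 0.15, 0.19 and 0.17, with adjusted p-values of 0.759, 0.611 and 0.639, and none of the members passed against shScr. The part of RNA quality in these values was not tested.

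**Figure D4:**
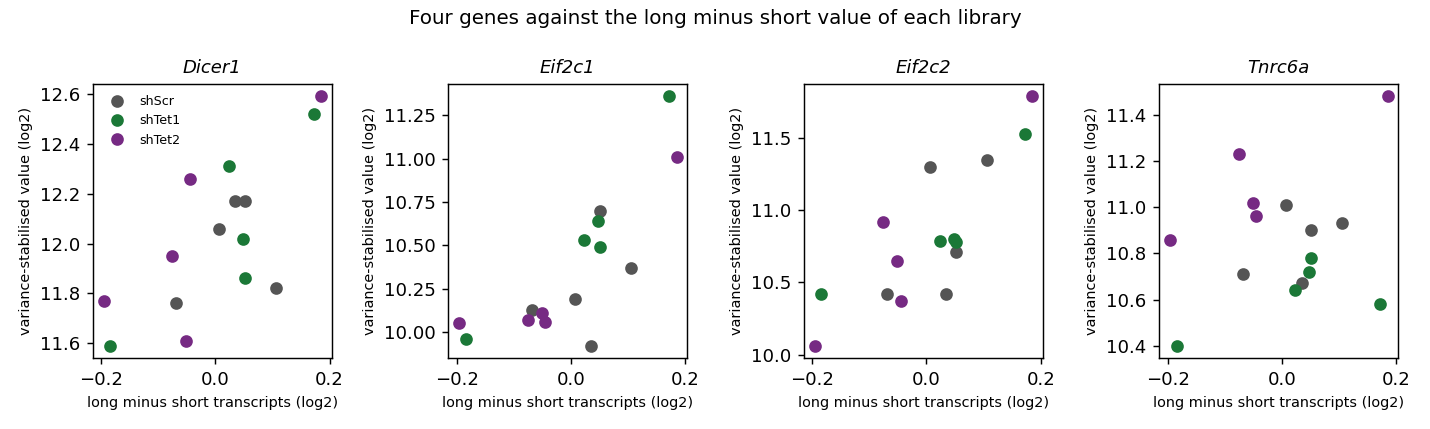
Variance-stabilised log2 value of Dicer1, Eif2c1, Eif2c2 and Tnrc6a in each of 15 libraries (y axis) against the library's long minus short value (x axis, log2 units: median deviation of genes with the longest exons minus that of genes with the shortest). shTet2 replicate 3 and shTet1 replicate 1, at 0.18 and 0.17 on the x axis, are the 2 highest libraries for Dicer1, Eif2c1 and Eif2c2.

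Over the 15 libraries, the genes whose values ran closest to those of Dicer1, by the root mean square difference after centring each gene on its own mean, were Cbfa2t2 (0.13), Bmpr2 (0.13) and Asxl1 (0.14), where the values of Dicer1 themselves had a root mean square of 0.29. For Dgcr8 they were Sfswap (0.11), Secisbp2 (0.11) and Rian (0.11), against 0.22 for Dgcr8 itself. For Eif2c2 they were Arhgap21 (0.17), Baz2a (0.17) and Dlg5 (0.18), against 0.47. No gene of the machinery was among them. The nearest member to Dicer1 was Eif2c1 at 0.29, and the nearest to Dgcr8 was Tarbp2 at 0.24.

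The rest of the pathway was followed in 8 lists of 65 other genes, of which 64 were found and tested (all but Henmt1). These lists too were chosen with earlier results of these data known. In shTet1 against shScr 0 of 64 passed, in shTet2 against shScr 1 of 64 (Piwil2) and in shTet2 against shTet1 3 of 64 (Piwil2, Tdrkh and Asz1), all 3 higher in shTet2 and all 3 of the piRNA list. These counts stand beside 0.0718%, 0.39% and 4.24% of all genes tested. At an unadjusted p under 0.05 they were 9, 6 and 12 of 64, beside 11.8%, 11.6% and 15.7% of all genes. The median difference of the 64 genes was -0.05, -0.05 and -0.06. With the replicate number as a block the counts were 3 of 64 in shTet1 against shScr, where 935 genes of the table were called, and 9 of 64 between the depletions, where 2178 were.

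The piRNA pathway protects the germ line from transposons with small RNAs that do not need Dicer, bound by PIWI proteins rather than Argonautes. Of the 11 genes of this list that were found, 10 were higher in shTet2 than in shTet1, with a median difference of 0.50, and 10 of 11 were higher than in shScr, with a median of 0.41. Over all genes tested 52.7% and 56.8% were higher in these comparisons, with medians of 0.01 and 0.04. In shTet1 against shScr 3 of 11 were higher and the median was -0.20. Piwil2, a PIWI protein, read 8.82, 8.22, 8.71, 8.87 and 8.96 in shScr. It read 8.31, 8.04, 8.18, 8.48 and 8.23 in shTet1, and 9.56, 9.28, 9.42, 9.52 and 9.37 in shTet2. Every shTet2 library was above every other. The differences of shTet2 were 0.72 ± 0.15 from shScr (adjusted p = 0.0372) and 1.18 ± 0.15 from shTet1 (0.000146). The call against shScr was lost without any 1 of 10 libraries, shScr replicates 1, 2, 3 and 5, shTet1 replicate 3 and each of the shTet2 replicates, with adjusted p-values from 0.053 to 0.118. The call against shTet1 was kept without any 1 library.

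Tdrkh, a Tudor domain partner of PIWI proteins on mitochondria, was higher in shTet2 than in shTet1, at 7.67 ± 0.29 against 6.82 ± 0.17 (SD, n = 5; difference 0.85 ± 0.21 SE, adjusted p = 0.0231). That call was lost without shTet1 replicate 2 or 5 or shTet2 replicate 2, 3 or 4, with adjusted p-values of 0.051 to 0.0653. Asz1, another scaffold of the piRNA machinery, was likewise higher, at 5.80 ± 0.12 against 5.12 ± 0.20 (0.68 ± 0.14, adjusted p = 0.00954). For both genes every shTet2 library was above every shTet1 library. Asz1 was at 4.89 to 6.02 over all libraries, beside 4.91 to 6.35 for Eif2c4, so its values too rest on few reads. At such values 1 unit is not close to a doubling. Eif2c4 differed by 0.37 in shTet2 against shScr, where its mean normalised reads were 178.9% of control. The extremes of the list against shScr were Piwil4 (-0.64) and Pld6 (0.56) in shTet1 and Piwil2 and Tdrd9 (-0.10) in shTet2, and Pld6 was also the lowest between the depletions (-0.25). With the replicate block, Piwil2 (-0.46, adjusted p = 0.0255) and Piwil4 (adjusted p = 0.0393), another PIWI protein, were also called lower in shTet1 than in shScr. Between the depletions the block called Piwil4 (1.13 ± 0.40, adjusted p = 0.000325, against 0.136 without it) and 2 genes named here after their values were seen, Mael (0.77, adjusted p = 0.0036, against 0.135) and Mov10l1 (0.50, adjusted p = 0.00857, against 0.0884). Asz1 did not overlap between shTet1 and shScr either, where it was lower (-0.46 ± 0.14, adjusted p = 0.186). Markers of the 2-cell-like state of ES cells moved with the same groups: the 3 of 6 markers found, Zscan4c, Zscan4d and Zscan4f, summed to 102 to 446 RPM in shTet1, 485 to 710 in shScr and 880 to 1793 in shTet2, with no overlap, and their part in the values of the piRNA genes, Tnrc6a and Xpo5 was not tested.

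**Figure D5:**
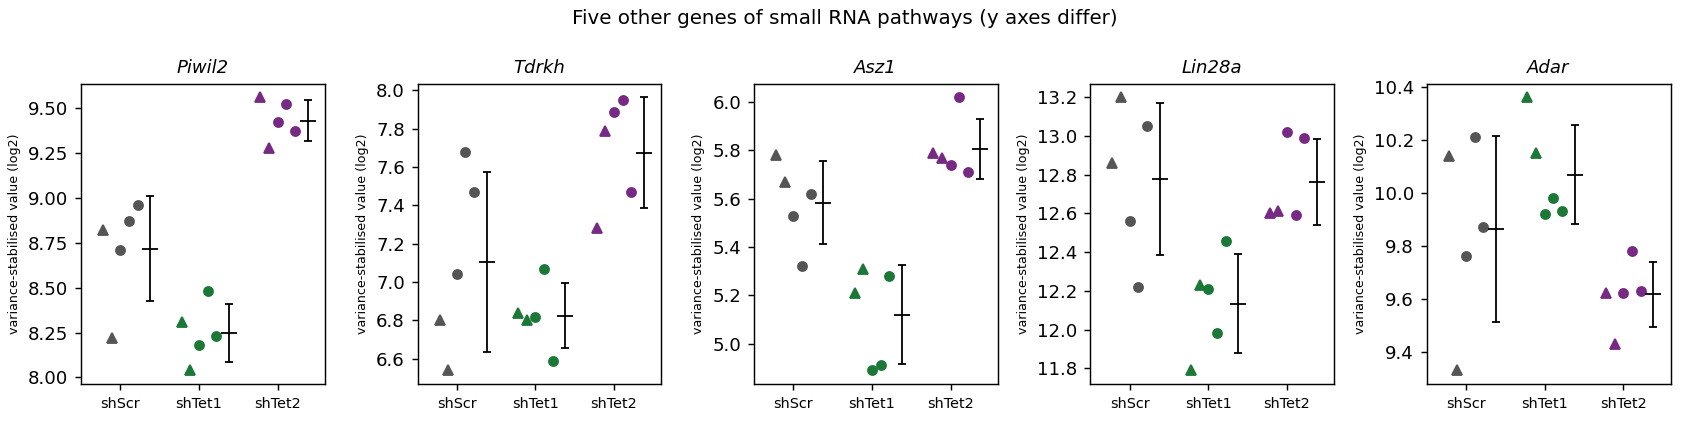
Variance-stabilised log2 values of Piwil2, Tdrkh, Asz1, Lin28a and Adar in every library, by group, with replicates 1 and 2 as triangles, replicates 3 to 5 as circles and the group mean ± SD (n = 5) as a black bar. For Piwil2, Tdrkh, Asz1 and Lin28a all shTet2 points lie above all shTet1 points, and for Adar all lie below.

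Among the genes that act on precursors, Lin28a, which binds let-7 precursors and blocks their maturation, read 11.79, 12.23, 12.21, 11.98 and 12.46 in shTet1. It read 12.60, 12.61, 13.02, 12.59 and 12.99 in shTet2. The groups did not overlap, and the difference of 0.63 ± 0.18 lay just outside the threshold (adjusted p = 0.0516; 0.00598 with the replicate block). Against shScr Lin28a differed by -0.64 ± 0.18 in shTet1 (adjusted p = 0.133; 0.0159 with the block). Its paralogue Lin28b was the lowest of this list in shTet2 against shScr (-0.42 ± 0.20) and against shTet1 (-0.27), and the uridyltransferase Zcchc11 the highest against shScr, at 0.36 in shTet1 and 0.14 in shTet2. Adar, an RNA-editing enzyme that acts on double-stranded RNA, was lower in every shTet2 library than in any shTet1 library (-0.45 ± 0.16, adjusted p = 0.128; 0.0301 with the block). The other extremes of its list were Adarb1 at 0.47 in shTet1 and 0.26 in shTet2 and Prkra at -0.08 in shTet1 and 0.33 between the depletions.

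None of the 9 genes of cropping in the nucleus passed in any comparison (limma; 1, 0 and 1 at an unadjusted p under 0.05), and their extremes were Ddx5 (-0.20) and Hnrnpa1 (0.56) in shTet1, Ddx17 (-0.26) and Khsrp (0.17) in shTet2, and Hnrnpa1 (-0.48) and Khsrp (0.11) between them. None of the 4 chaperones that load Argonautes passed either (0 at an unadjusted p under 0.05), with differences between -0.20 (Hsp90ab1 between the depletions) and 0.31 (Hsp90ab1 in shTet1), and Hsp90aa1 (-0.14 and -0.16), Ptges3 (0.14) and Hspa8 (0.10) as the other extremes. Of the 7 partners of the silencing complex, 0 passed (1, 0 and 0 unadjusted). Beside the counts of these lists, 0.0718%, 0.39% and 4.24% of all genes tested passed, and 11.8%, 11.6% and 15.7% were under 0.05 unadjusted. Mov10, a helicase, differed by 0.53 in shTet1 and -0.41 between the depletions, and Ddx6 by -0.21 and 0.10. In shTet2, Snd1 differed by 0.27 and Tnrc6c, a paralogue of Tnrc6a, by -0.24.

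Of the 15 genes of deadenylation and decay, a list that includes the deadenylases that Tnrc6a recruits, 0 passed (limma; 1, 1 and 3 at an unadjusted p under 0.05). Over all genes tested, 0.0718%, 0.39% and 4.24% passed, and 11.8%, 11.6% and 15.7% were under 0.05 unadjusted. In shTet2, 13 of 15 were lower than in shScr (median -0.17) and 12 of 15 lower than in shTet1 (median -0.14), where over all genes the medians were 0.04 and 0.01. Cnot2, a subunit of a deadenylase complex that was named after its values were seen, was the only gene of the list without overlap between groups. Its values were 11.59 to 11.78 in shTet2, 11.89 to 12.39 in shScr and 11.86 to 12.07 in shTet1. It differed by -0.36 ± 0.11 from shScr and -0.25 ± 0.11 from shTet1 in shTet2 (adjusted p = 0.186 and 0.299). The deadenylase gene Cnot6l had the widest differences of the list, 0.56 ± 0.23 in shTet1 and -0.76 ± 0.23 between the depletions (adjusted p = 0.327 and 0.0725; 0.0314 with the block for the latter). Pabpc1, the poly(A)-binding protein, differed by -0.35 ± 0.33 in shTet1 and 0.27 ± 0.33 between them, and Cnot6 and Pan2 by -0.38 and 0.06 in shTet2.

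None of the 8 transcripts that host microRNAs passed in any comparison (0 at an unadjusted p under 0.05). The shares over all genes tested were 0.0718%, 0.39% and 4.24%, and 11.8%, 11.6% and 15.7% unadjusted. Mcm7, a replication helicase subunit whose introns hold the miR-25 and miR-93 hairpins, had the steadiest values, from 12.85 to 13.13 over all libraries, and differed by 0.04 ± 0.10 in shTet1 and -0.01 ± 0.10 in shTet2. Mir17hg, the host of miR-92a, which has the seed of miR-25, differed by -0.23 ± 0.22 and -0.29 ± 0.22. Smc4 and Dleu2, whose products share the miR-15 and miR-16 seed, differed by -0.08 and -0.13 for the first and by -0.37 and -0.17 for the second. Mirg, of the Dlk1-Dio3 imprinted cluster, had the lowest difference in shTet1 (-0.54 ± 0.27, adjusted p = 0.451) and the highest between the depletions (0.42), and Sfmbt2 the opposite extremes (0.16 and -0.21).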

How the data were processed

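The 9 genes and all lists were chosen with earlier results of these data known. Per the labels and the study's methods, the authors trimmed reads with Trim Galore 0.3.3, aligned them to mm9 with TopHat2 2.0.9 keeping 1 position per read, counted them per gene in Seqmonk and deposited variance-stabilised log2 values from DESeq2. Undoing the transformation gave whole reads (within 0.05) for 100% of 210724 values checked, used for depth and levels. The intended count model was not run because the deposited unit is log2.

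The 19490 genes with a read in 5 or more of the 15 libraries were fitted with limma 3.58.1 (R 4.3.3; group only, all libraries, variance trend), with Benjamini-Hochberg adjustment at 0.05, after testing on simulated data. Exact two-sided permutation tests used all 252 splits of 5 against 5, and their adjustment over the 9 genes is not given. Deviations of same-numbered libraries correlated at 0.374 to 0.657 for shTet1 with shScr and at 0.33 to 0.731 for shTet2 with shTet1, over 0.1 in every pair, so numbers were taken to pair these groups. For shTet2 with shScr the lowest was 0.008, so they were not. Replicate libraries differed by more than counting noise.

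Named from each other list were every called gene (at most 4) and the highest and lowest difference in each comparison. Likeness took the 3 nearest named genes, leaving out the 9 members, predicted genes and RIKEN clones. Positions, overlaps and exon lengths, merged over transcripts, came from GENCODE vM1 (NCBIM37). The deposited repeat table was not used. Alternatives were other filters, no variance trend, 2 groups only, median centring, quantile normalisation, log2 RPM with 0.5 reads added, array weights, the replicate block, replicates 1 and 2 against 3 to 5, receptor share, transcript length and leaving out each library.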

Additional observations from a re-analysis of the deposited data

Results flagged for a closer look

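In 27 groups of 5 libraries, 2 values of the 9 genes stood apart from the other 4 of their group by Dixon's test at the 95% level, which chance gives in about 1 of 20 groups. Eif2c1 was at 11.01 in shTet2 replicate 3, where the other 4 shTet2 libraries lay between 10.05 and 10.11. The same library had the highest long minus short value of all 15 and the fewest reads over genes, 15258291. Eif2c4 was at 6.35 in shTet2 replicate 4, against 5.52 to 5.74 in the other 4. That library had 84 reads on Eif2c4, the most reads over genes (35432425) and the highest share of receptor reads (63.4 RPM). Whether these properties account for either value was not tested.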

How the results depend on the processing

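Each of the 27 differences of the 9 genes, the calls, the genes of the other lists that were called or whose groups did not overlap, and Cnot6l were recomputed under 29 alternatives, of which the transcript length covariate was chosen after seeing the data. Tnrc6a between the depletions was positive in all 29 and called in 11. By limma it was not called without a variance trend (adjusted p = 0.0584), with 2 groups only (adjusted p = 0.071), with median centring (0.43, adjusted p = 0.117), with array weights (0.40, adjusted p = 0.0608), or in replicates 1 and 2 (0.30, adjusted p = 0.263) or 3 to 5 alone (0.61, adjusted p = 0.171). By limma Xpo5 between the depletions was called with array weights (-0.50, adjusted p = 0.0375), with a term for replicates 1 and 2 against 3 to 5 (adjusted p = 0.0366) and with the replicate block (adjusted p = 0.00918). With the block limma also called it against shScr (adjusted p = 0.0436), where the numbers were not taken to pair the libraries. No other member was called in any setting. Of the other lists, Piwil2 against shScr was not called with 2 groups only (adjusted p = 0.0672), median centring (0.61, adjusted p = 0.0908), the logarithm of scaled reads (0.85, adjusted p = 0.0659), transcript length (adjusted p = 0.0545) or either replicate set alone (adjusted p = 0.183 and 0.525), and Asz1 between the depletions not with quantile normalisation (adjusted p = 0.0525). Lin28a between the depletions was called above the minimum in all libraries (adjusted p = 0.0457), with 2 groups only (adjusted p = 0.0314), quantile normalisation (adjusted p = 0.0106), the logarithm of scaled reads (adjusted p = 0.0169), array weights (adjusted p = 0.0249), the block (adjusted p = 0.00598), the replicate term (adjusted p = 0.0384) and receptor share (adjusted p = 0.0308), and on leaving out shScr replicate 2 or 4 or shTet1 replicate 5 (adjusted p = 0.0387, 0.024 and 0.0355), and Cnot6l with median centring (adjusted p = 0.0478), array weights (adjusted p = 0.016), the block (adjusted p = 0.0314), the replicate term (adjusted p = 0.0461) and transcript length (-0.58, adjusted p = 0.0386), and on leaving out shTet1 replicate 5 or shTet2 replicate 3 (adjusted p = 0.0294 and 0.0207). Adar was called with array weights (adjusted p = 0.0416) and the block (adjusted p = 0.0301), and Cnot2 in shTet2 against shScr with the block (adjusted p = 0.0403). Tdrkh, Asz1 and Piwil2 between the depletions were not called in replicates 1 and 2 alone (adjusted p = 0.215, 0.132 and 0.117), nor Tdrkh and Asz1 in 3 to 5 alone (adjusted p = 0.104 and 0.101).

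Members called between the depletions, 1, were 0 without a variance trend, with 2 groups only, with median centring and in either set of replicates alone, 2 with the block or the replicate term, and 0 to 1 on leaving out a library; in shTet2 against shScr the block gave 1. Genes called over the table in shTet1 (14: 9 higher, 5 lower) were 22 above the minimum in all libraries, 3 with 2 groups, 22 with quantile normalisation, 56 with array weights, 935 with the block, 264 with the replicate term, 97 with receptor share, 43 with transcript length, 0 in replicates 1 and 2 alone, 0 in 3 to 5 alone, and 1 to 171 without 1 library, the most on leaving out shTet1 replicate 5 and the least on leaving out shScr replicate 2 or any of shTet1 replicates 1, 2 and 4. In shTet2 (76: 43 higher, 33 lower) they were 39 with median centring (5 higher, 34 lower), 45 with quantile normalisation (16 higher, 29 lower), 33 with the logarithm of scaled reads, 283 with array weights, 840 with the block, 266 with the replicate term, 48 with transcript length, 0 and 1 in the replicate sets alone, and 10 to 99 on leaving out 1 library (least for shTet2 replicate 2, most for shTet1 replicate 1). Median centring moved all differences of shTet2 from shScr by -0.11. Between the depletions (827) they were 1246 with array weights, 2178 with the block, 1263 with the replicate term, 0 and 143 in the sets alone, and 512 to 902 on leaving out 1 library (least for shTet1 replicate 2, most for shScr replicate 2). Other pathway genes called were 3 with the block in shTet1. In shTet2 against shScr they were 4 with the block, and 0 with 2 groups, median centring, scaled reads, transcript length, either replicate set or any 1 of 10 libraries left out. Between the depletions they were 8 with array weights, 9 with the block, 7 with the replicate term, 5 with receptor share, and 0 and 1 in the sets alone. Limma did not call Tet1 and Tet2 in replicates 1 and 2 alone (-2.03, adjusted p = 0.108, and -1.97, adjusted p = 0.0924), nor Tet1 in 3 to 5 alone (-1.71, adjusted p = 0.607), where few libraries remain.

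Differences that were not called took the other sign 64 times, never as a call (smallest adjusted p in limma 0.367). In replicates 3 to 5 alone these were, in shTet1 against shScr, Dicer1 -0.060, Dgcr8 0.145, Eif2c2 -0.353 and Tarbp2 0.001; in shTet2, Dgcr8 0.028, Eif2c1 0.168 and Eif2c2 0.102; between the depletions, Dicer1 0.225, Dgcr8 -0.118, Eif2c1 0.035 and Eif2c2 0.454. In replicates 1 and 2 alone they were Xpo5 -0.146 in shTet1, Dicer1 -0.152 in shTet2 and Eif2c4 -0.120 between the depletions. With median centring they were Eif2c2 -0.026 in shTet1, Dicer1 -0.069 and Tarbp2 -0.011 in shTet2, and Dgcr8 -0.012 between the depletions. Quantile normalisation gave Eif2c1 0.045 in shTet2, and Dicer1 0.006 and Eif2c4 -0.025 between the depletions. The logarithm of scaled reads gave Eif2c1 0.076 and Dicer1 0.009 in these comparisons, receptor share 0.005 and 0.007, and array weights Tarbp2 -0.004 in shTet2. Transcript length gave Eif2c1 0.189 and Eif2c2 0.152 in shTet2, and Dicer1 0.103, Eif2c2 0.113 and Eif2c3 0.021 between the depletions. Of the ranges on leaving out 1 library, those that crossed 0 were, in shTet1, -0.053 to 0.179 for Dicer1, -0.139 to 0.153 for Eif2c2 and -0.006 to 0.123 for Xpo5. In shTet2 they were -0.100 to 0.145 for Dicer1, -0.188 to 0.109 for Eif2c1, -0.337 to 0.097 for Eif2c2 and -0.014 to 0.156 for Tarbp2. Between the depletions they were -0.162 to 0.091 for Dicer1, -0.069 to 0.124 for Dgcr8, -0.363 to 0.070 for Eif2c2, -0.226 to 0.051 for Eif2c3 and -0.033 to 0.187 for Eif2c4. The causes were not tested.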
